A study of Mus musculus with 18 samples.

Results

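Untreated tumours of mice ablated elsewhere by cryo-thermal therapy or by radiofrequency, without any antibody, were compared by RNA sequencing. The 6 tumours compared were 3 from cryo-thermal animals and 3 from radiofrequency animals, taken from 18 tumours in 6 groups of 3. Tumours were assigned to groups by their labels alone. The groups used were cryo-thermal therapy (freezing of another tumour followed by heating) and radiofrequency ablation (heating alone, by an alternating current), with both ablations plus an antibody against PD-1 set beside them. The remaining groups were cryoablation without and with anti-PD-1. They were not compared here, but entered the filter and the fit's shared estimate of spread. The labels name no other agent. The sources used here give no tumour line, mouse strain, age or day of collection. Whether each tumour had its own mouse is not stated either. The p-values set each difference only against the spread of samples within groups, shared over all 18 tumours. Part of that spread may be technical. Expression was read as FPKM (fragments counted for a gene, scaled to its length and to the library's depth), and 12587 of the 26538 genes in the table, those with a mean of at least 0.5 FPKM over all 18 tumours, were tested on the log2(FPKM + 1) scale, on which differences of weakly expressed genes are smaller than their FPKM ratios.

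Destroying a tumour in place releases antigen and danger signals, which dendritic cells can carry to lymph nodes, where they prime T cells that may reach tumours elsewhere in the body. T and NK cells that recognise a tumour make interferon gamma, which induces guanylate-binding proteins, immunity-related GTPases, antigen presentation and the chemokines CXCL9 and CXCL10 in the cells around them. Type I interferons induce an overlapping set of antiviral genes, and chemokines such as eotaxin (Ccl11) and Cxcl14 are made largely by stromal and epithelial cells.

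The 6 libraries were of like depth, 37804766 to 38542878 fragments. The tissue markers fixed for the comparison did not settle what kind of tumour was sampled: the epithelial gene Epcam reached 0.428 FPKM and Krt8 0.971 FPKM at most in the 6 tumours, and the pigment genes Tyr and Tyrp1 were at 0 in all 6. Across genes on the log2 scale, the tumour of cryo-thermal replicate 3 had a Pearson r of 0.982 and 0.989 with the other cryo-thermal tumours, against 0.990, 0.993 and 0.981 with the radiofrequency tumours. Cryo-thermal replicate 3 thus lay as near to the radiofrequency tumours as to its own group. Radiofrequency replicate 3 had r of 0.984 and 0.977 with its own group. Medians over whole lists that moved by more than 1.5 times without 1 of the 6 tumours are given below with such values or their range.

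Of the 26538 rows, 26533 (99.98%) gave whole numbers of fragments in every tumour once FPKM was multiplied by gene length and depth. Their largest distance from a whole number was 0.00022 fragments. The 5 exceptions were the chemokines Ccl5, Cx3cl1, Cxcl9, Cxcl10 and Cxcl16. At the best of all lengths from 50 to 60000 bases, these 5 rows still missed a whole number by 0.229 to 0.292 fragments in at least 1 tumour. They were also the only rows reaching 0.5 FPKM that were written with at most 7 significant digits. The values of these 5 chemokines are therefore not on the same fragment counts as the rest of the table, and how they were made is not given in the sources used here. They are given below as deposited, and list counts that include them are given without them as well.

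**Figure D1:**
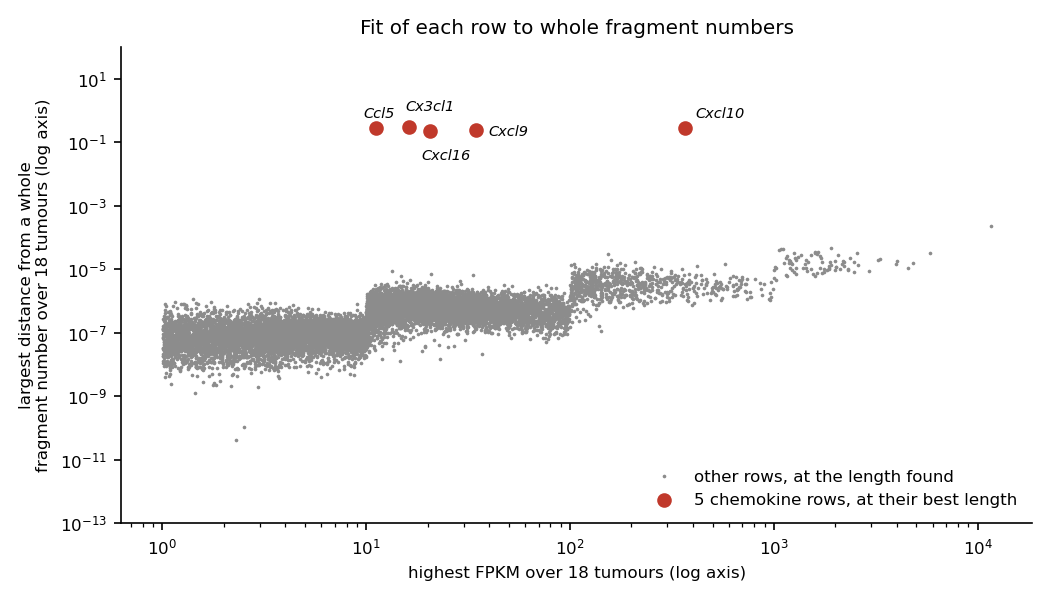
Each grey point is a row of the table with more than 1 FPKM in some tumour; the x axis (log) is its highest FPKM and the y axis (log) its largest distance from a whole fragment number over the 18 tumours. The 5 chemokine rows (red), at the gene length that suits them best, lie at 0.229 to 0.292 fragments, and every other row lies at 0.00022 or below.

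Ccl11, the eosinophil-attracting chemokine eotaxin, was the 1 gene past the threshold. It measured 8.63, 5.56 and 3.42 FPKM in the cryo-thermal tumours, against 0.967, 1.13 and 1.15 FPKM in the radiofrequency tumours. These values rest on 350, 230 and 140 fragments in the cryo-thermal tumours and on 40, 46 and 47 fragments in the radiofrequency tumours. The lowest cryo-thermal tumour lay well above the highest radiofrequency tumour, and the radiofrequency values were close together. Ccl11 rose by 1.65 on the log2 scale (SE 0.23, limma adjusted p = 0.0322), the only call among 12587 genes (0.00794%). No gene fell (0%). At unadjusted p under 0.05 limma gave 1039 genes higher (8.25%) and 673 lower (5.35%). The 3 and 3 values of 1017 genes (8.08%) did not overlap with the cryo-thermal tumours higher, and those of 955 genes (7.59%) with the cryo-thermal tumours lower, and the counts of list members below are to be read against these shares.

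The Ccl11 call depended on which tumours were in the fit. It did not pass without cryo-thermal replicate 1 (log2 fold change 1.37, adjusted p = 0.108), cryo-thermal replicate 2 (1.65, 0.246), radiofrequency replicate 1 (1.61, 0.299) or radiofrequency replicate 2 (1.67, 0.207). Over all 15 alternatives the log2 fold change ran from 1.37 to 2.33 and the adjusted p from 0.000683 to 0.495, with 7 of the 15 past the threshold. For 1 gene in 3 and 3 tumours, the smallest p of an exact permutation test is 0.1. With anti-PD-1 in both groups, Ccl11 measured 8.62, 7.52 and 8.21 FPKM after cryo-thermal therapy, against 4.85, 4.7 and 4.48 FPKM after radiofrequency ablation. That is a log2 fold change of 0.68 (limma adjusted p = 0.136), and the difference between the 2 comparisons had an unadjusted p of 0.00848 and did not pass over all genes.

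Several eosinophil transcripts were scarcely detected. The eosinophil genes Ccr3 (the eotaxin receptor), Siglecf, Il5ra, Epx and Prg2 reached at most 0.129, 0.195, 0.0548, 0.031 and 0.138 FPKM in any of the 6 tumours. Near this floor, Ccr3 had 0.1288, 0.0595 and 0.0376 FPKM after cryo-thermal therapy and 0.0149, 0.0076 and 0.0375 FPKM after radiofrequency ablation. How many eosinophils were present was not measured. Among the 7 tested genes of the eosinophil and type 2 list, the values of 1 did not overlap: Il1rl1, the IL-33 receptor, had 12.0, 16.8 and 13.2 FPKM in the cryo-thermal tumours, against 11.2, 7.15 and 6.34 FPKM in the radiofrequency tumours. Another eotaxin, Ccl24, had 0.675, 0.227 and 0.172 FPKM after cryo-thermal therapy and 0.776, 1.41 and 0.153 FPKM after radiofrequency ablation, and its values overlapped. Of the 14 tested CC chemokines on fragment counts, 1 did not overlap on the higher side, Ccl11, and 0 on the lower side; with Ccl5 the count was 2 of 15. Ccl5, a row of the other precision, was deposited as 5.58, 6.62 and 7.39 FPKM in the cryo-thermal tumours and 4.05, 3.97 and 1.46 FPKM in the radiofrequency tumours.

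Cxcl14, a chemokine of skin and stroma, came next. It had 13.7, 16.8 and 8.29 FPKM in the cryo-thermal tumours, against 3.36, 2.25 and 5.01 FPKM in the radiofrequency tumours, so the groups did not overlap. Its log2 fold change was 1.61 (SE 0.27, limma adjusted p = 0.155). The level of Cxcl14 was 20.0, 15.1 and 13.1 FPKM after cryo-thermal therapy with anti-PD-1, against 14.7, 11.2 and 7.83 FPKM after radiofrequency ablation with it. In the CXC list, 3 of the 10 tested genes on fragment counts did not overlap on the higher side (Cxcl13, Cxcl14 and Xcl1) and 0 on the lower side, with a median of 0.23. With the 4 rows of the other precision the median of the 14 was 0.01, and Cx3cl1 and Cxcl10 did not overlap on the lower side. The median of the 14 lay from -0.257 without cryo-thermal replicate 1 to 0.375 without cryo-thermal replicate 2.

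**Figure D2:**
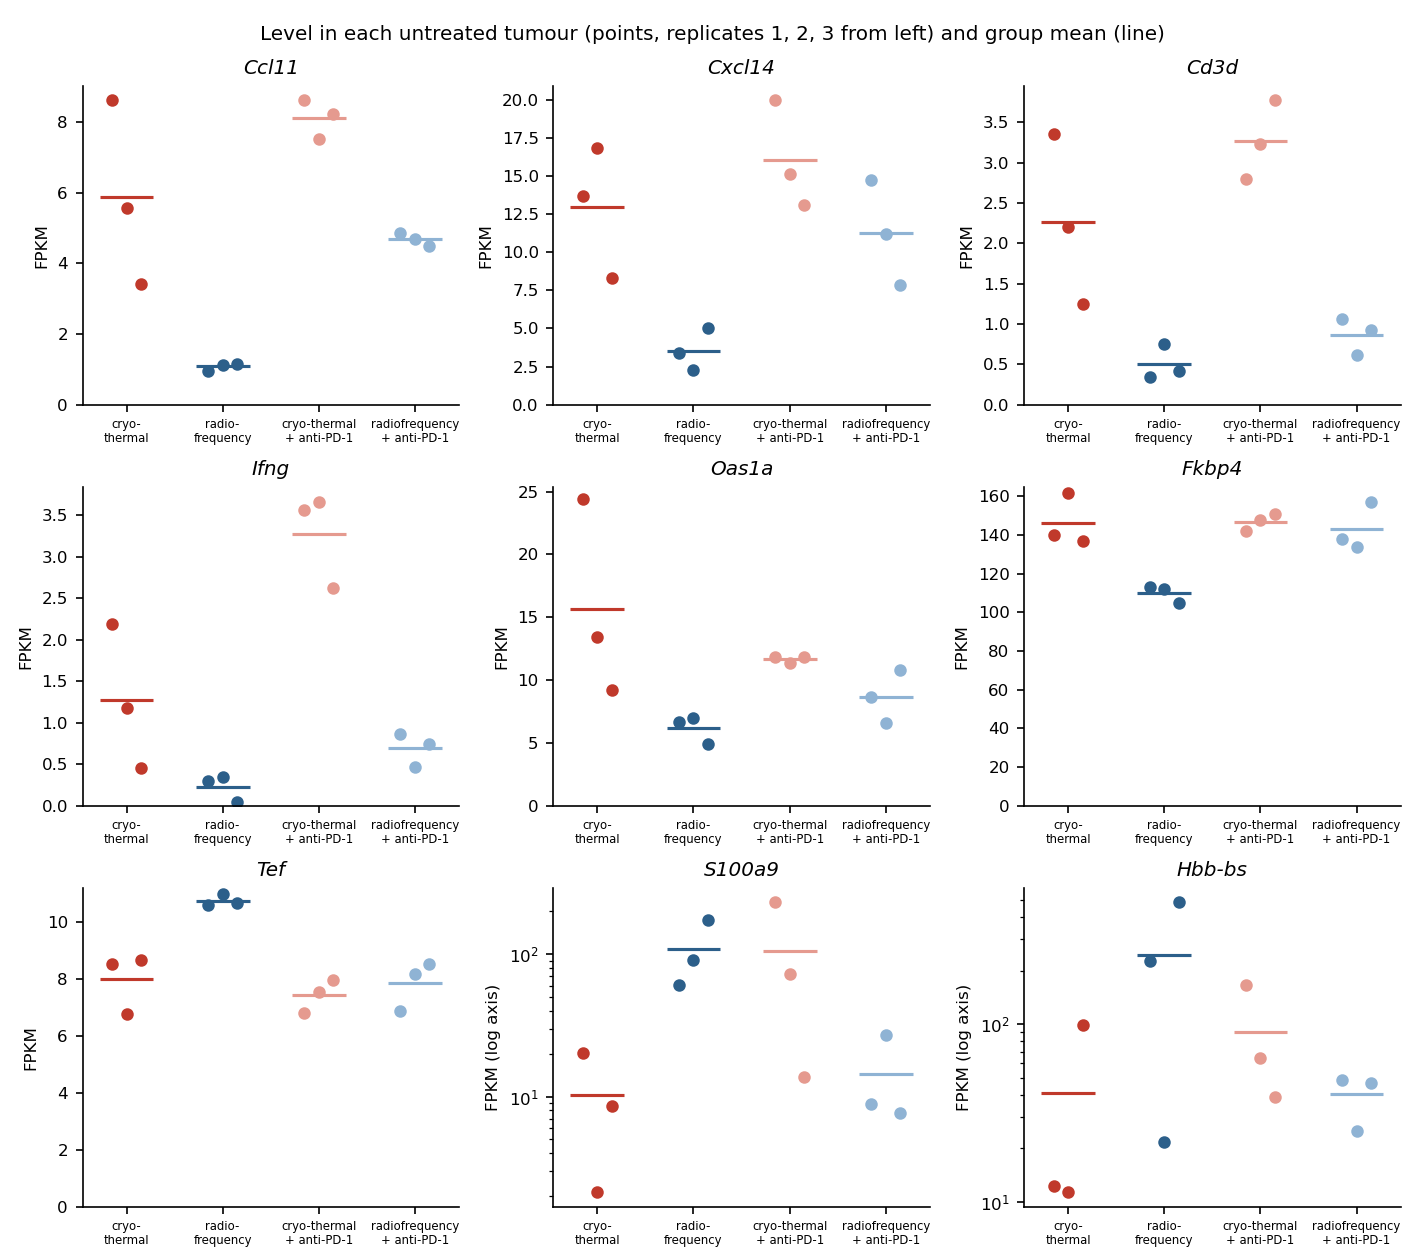
FPKM of 9 genes in each tumour (points) with the group mean (line), cryo-thermal left of radiofrequency, first without and then with anti-PD-1; the panels of S100a9 and Hbb-bs have log axes. Ccl11 lies at 3.42 FPKM or above in the cryo-thermal tumours and at 1.15 FPKM or below in the radiofrequency tumours, while S100a9 lies at 20.2 FPKM or below and at 60.4 FPKM or above.

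The genes next by p ranged widely in level and in size of difference. On the higher side these were Sh2d4a, Stip1, Rtn2, Atic, Gart, Pdlim1, Aarsd1, Uaca, Fkbp4 and Gprc5a, and on the lower side Ncam1, Zfp821, Chaserr, Klf10, Zranb1, Edil3, Tbc1d12, Plxnb1, Cdk19, S100a9, Stam2 and Tbx3os1. None of these passed (limma adjusted p up to 0.262). The values of all 24 leading genes, Ccl11 and Cxcl14 included, did not overlap between groups. As they were chosen by p in these same tumours, that largely follows from the choice and is no added support. Pdlim1, a cytoskeletal adaptor, had 74.0, 71.6 and 73.2 FPKM in the cryo-thermal tumours, against 61.1, 62.7 and 63.3 FPKM in the radiofrequency tumours (log2 fold change 0.22, SE 0.05). Ncam1, a neural cell adhesion molecule, had 2.59, 4.31 and 3.69 FPKM in the cryo-thermal tumours and 5.83, 6.02 and 5.25 FPKM in the radiofrequency tumours (log2 fold change -0.58, SE 0.12). Chaserr, a long non-coding RNA beside the chromatin remodeller Chd2, had 5.95, 6.09 and 5.94 FPKM in the cryo-thermal tumours and 8.13, 8.48 and 9.77 FPKM in the radiofrequency tumours (log2 fold change -0.48). In the tumours with anti-PD-1, 19 of the 24 had a log2 fold change of the same sign, some of them near 0 (Atic 0.017, Cdk19 -0.019). The share of the same sign over all genes was not computed, so the count is not read as agreement. Plxnb1, the semaphorin receptor plexin B1, had the other sign there. Without antibody it had 0.285, 0.583 and 0.715 FPKM after cryo-thermal therapy and 1.31, 0.947 and 1.02 FPKM after radiofrequency ablation. With anti-PD-1 it had 1.64, 1.57 and 1.53 FPKM after cryo-thermal therapy and 0.8, 0.982 and 0.633 FPKM after radiofrequency ablation (unadjusted p = 2.23e-05 for the difference between the comparisons, none past the adjusted threshold).

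Atic and Gart, which catalyse steps of purine synthesis, stood together among the leading genes, so the pathway was looked at after their values were seen. Gart had 25.8, 27.5 and 23 FPKM in the cryo-thermal tumours and 20.8, 20.7 and 19.1 FPKM in the radiofrequency tumours. The values of the other 4 enzymes (Ppat, Pfas, Paics and Adsl) overlapped between groups, with log2 fold changes from -0.02 to 0.17.

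T cell genes lay higher after cryo-thermal therapy in most members, without passing the test. Of 12 tested T cell genes, 11 had a positive log2 fold change, 5 (Cd2, Cd3d, Cd6, Lat and Lck) did not overlap on the higher side, 0 did on the lower side, and the median was 0.70 (0.44 without cryo-thermal replicate 1), against -0.0008 over all genes. Cd3d, a chain of the T cell receptor complex, had 3.36, 2.2 and 1.25 FPKM in the cryo-thermal tumours, against 0.343, 0.752 and 0.415 FPKM in the radiofrequency tumours (log2 fold change 1.08, SE 0.25, limma adjusted p = 0.242). Cryo-thermal replicate 1 was the highest of the 6 tumours for 11 of the 12 genes, and cryo-thermal replicate 3 lay closest to the radiofrequency tumours. Cd3e overlapped, with 4.17, 2.4 and 1.4 FPKM in the cryo-thermal tumours and 0.547, 2.04 and 0.983 FPKM in the radiofrequency tumours. In RNA from whole tumours, fewer cells of a type and less RNA per cell cannot be told apart.

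Among cytotoxic lymphocyte and NK cell genes, 13 of 13 had a positive log2 fold change and 8 did not overlap (Cd8a, Cd8b1, Nkg7, Ifng, Klrk1, Klrd1, Xcl1 and Ctsw), with a median of 0.85 (0.54 without cryo-thermal replicate 1). Cd8a, the co-receptor of cytotoxic T cells, had 5.2, 3.48 and 1.95 FPKM after cryo-thermal therapy, against 0.771, 1.67 and 0.744 FPKM after radiofrequency ablation. Ifng had 2.19, 1.18 and 0.455 FPKM after cryo-thermal therapy and 0.3, 0.35 and 0.0432 FPKM after radiofrequency ablation. These rest on 100, 55 and 21 against 14, 16 and 2 fragments, so its lack of overlap is near counting error. The killing molecules themselves overlapped: Gzmb had 19.0, 11.3 and 12.6 FPKM in the cryo-thermal tumours and 8.99, 14.4 and 6.21 FPKM in the radiofrequency tumours, and Prf1 had a log2 fold change of 0.05 (SE 0.38). Of 15 regulatory T cell and checkpoint genes, 15 were positive and 9 did not overlap, with a median of 0.61. Ctla4, an inhibitory receptor rich on regulatory T cells, had 5.13, 3.88 and 1.65 FPKM after cryo-thermal therapy and 0.595, 0.966 and 0.613 FPKM after radiofrequency ablation (log2 fold change 1.32, limma adjusted p = 0.228). Pdcd1, which encodes PD-1, had 3.89, 2.08 and 1.19 FPKM in the cryo-thermal tumours and 0.456, 1.12 and 0.541 FPKM in the radiofrequency tumours. Its ligand Cd274 had 19.0, 9.83 and 8.59 FPKM after cryo-thermal therapy and 6.52, 7.83 and 5.26 FPKM after radiofrequency ablation. Foxp3, under the filter, had 0.694, 0.733 and 0.174 FPKM in the cryo-thermal tumours and 0.145, 0.128 and 0.127 FPKM in the radiofrequency tumours.

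How many of these genes passed turned on cryo-thermal replicate 3. Without it, 155 genes were higher (1.23%) and 123 lower (0.977%) past the threshold, against 1 and 0 with it, and without radiofrequency replicate 3 the counts were 5 and 0 (Mfap5, Cilp, Cxcl14, Ccl11 and Gfpt2). Without any 1 of the other 4 tumours both counts were 0. Among the 155 and 123 were 6 of the 12 T cell genes, 3 of the 13 cytotoxic genes and 5 of the 15 regulatory and checkpoint genes, each higher after cryo-thermal therapy. They held 0 of the 23 interferon gamma, 1 of the 23 type I interferon, 1 of the 19 MHC class I and 0 of the 10 MHC class II genes. Jchain, a marker of antibody-secreting cells, had 4.77, 4.06 and 0.637 FPKM in the cryo-thermal tumours, against 0.0386, 0.157 and 0.661 FPKM in the radiofrequency tumours, so cryo-thermal replicate 3 lay among the radiofrequency tumours. The log2 fold change of Jchain was 1.53 (limma adjusted p = 0.262). It was 1.73 (adjusted p = 0.246) without radiofrequency replicate 3 and 2.10 (adjusted p = 0.00604) without cryo-thermal replicate 3. As the latter tumour went against the difference, the smaller p without it is no added support. Tnfrsf13c, the other tested gene of the B and plasma cell list, went the other way. Its log2 fold change was -0.44, and -0.655 (limma adjusted p = 0.0448) without cryo-thermal replicate 3, whose value again went against the difference. Of the list's genes under the filter, Mzb1, Derl3 and Cd79a overlapped between groups. Of 9 tested chemokine receptors, 2 did not overlap on the higher side and 0 on the lower side. Cxcr3, a receptor of activated T cells, had 1.82, 1.16 and 0.359 FPKM after cryo-thermal therapy and 0.0484, 0.197 and 0.26 FPKM after radiofrequency ablation. These rest on 111, 72 and 22 against 3, 12 and 16 fragments, so its lack of overlap is near counting error. Cxcr6 had 5.13, 2.33 and 1.48 FPKM after cryo-thermal therapy and 1.06, 0.922 and 0.829 FPKM after radiofrequency ablation.

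**Figure D3:**
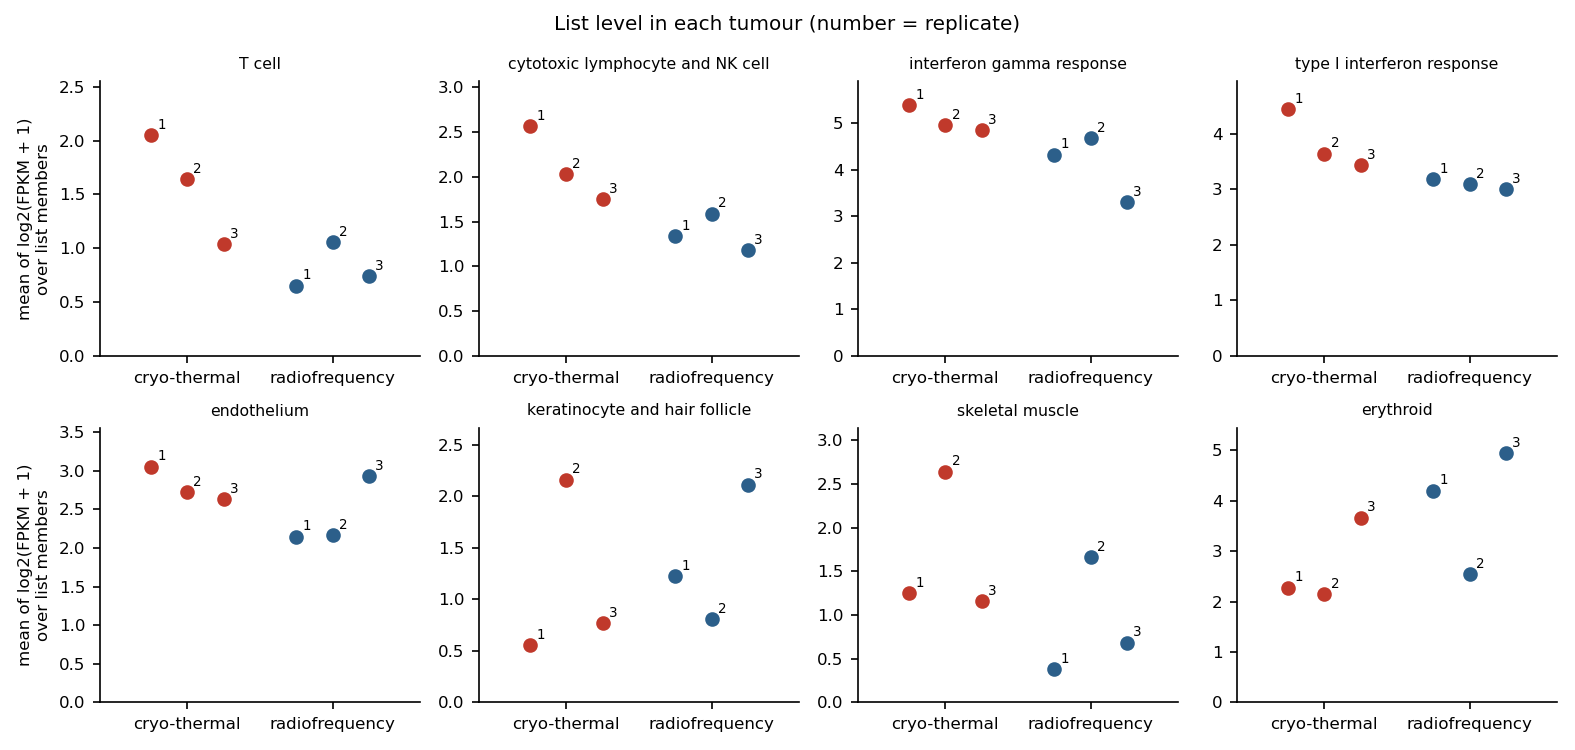
Mean of log2(FPKM + 1) over the tested members of 8 gene lists, a point per tumour marked with its replicate number, cryo-thermal left of radiofrequency. T cell genes lie at 2.05 in cryo-thermal replicate 1, the highest, and at 0.653 in radiofrequency replicate 1, the lowest, and interferon gamma response genes are lowest in radiofrequency replicate 3, at 3.30; muscle, keratinocyte and erythroid genes vary between tumours of the same group.

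The interferon gamma response list had the highest median of the lists with at least 5 tested members, 1.08. Of its 21 genes on fragment counts, 21 had a positive log2 fold change, 16 did not overlap on the higher side and 0 on the lower side, with a median of 1.11. The other 2 of the 23, Cxcl9 and Cxcl10, are rows of the other precision. For each of those 21 genes the highest of the 6 tumours was cryo-thermal replicate 1 and the lowest was radiofrequency replicate 3. Gbp2, a guanylate-binding protein, had 298, 215 and 198 FPKM in the cryo-thermal tumours, against 135, 171 and 31.6 FPKM in the radiofrequency tumours. Ido1, an interferon-induced enzyme that breaks down tryptophan, had 5.15, 3.36 and 3.03 FPKM after cryo-thermal therapy and 0.855, 1.23 and 0.117 FPKM after radiofrequency ablation (log2 fold change 1.52, SE 0.43, limma adjusted p = 0.262). Without radiofrequency replicate 3 the list median was 0.64. Cxcl10 was deposited as 39.0, 77.7 and 73.9 FPKM in the cryo-thermal tumours and 157, 259 and 172 FPKM in the radiofrequency tumours. Cxcl9 was deposited as 12.0, 13.2 and 17.2 FPKM in the cryo-thermal tumours and 16.9, 10.7 and 22.5 FPKM in the radiofrequency tumours. Tgtp1 and Tgtp2 are near-identical copies, as are several H2-Q and H2-T genes, so their separate values are uncertain.

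Antigen presentation genes lay higher in the cryo-thermal tumours without passing the test, with cryo-thermal replicate 1 highest for 18 of 19 MHC class I genes. All 19 were positive, 11 did not overlap on the higher side, and the median was 0.51. The non-classical class I gene H2-Q7 had 3.58, 1.76 and 2.12 FPKM in the cryo-thermal tumours and 0.557, 0.517 and 0.63 FPKM in the radiofrequency tumours (log2 fold change 1.12, SE 0.25, limma adjusted p = 0.224). H2-D1, a classical class I heavy chain, had 1715, 1537 and 1388 FPKM after cryo-thermal therapy and 1269, 1360 and 932 FPKM after radiofrequency ablation. All 10 MHC class II genes were positive with a median of 0.73, but 0 were without overlap, since radiofrequency replicate 2 lay within the cryo-thermal range: Cd74, the class II invariant chain, had 726, 541 and 393 FPKM after cryo-thermal therapy and 219, 550 and 178 FPKM after radiofrequency ablation.

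Type I interferon genes were the list with the largest share without overlap, 18 of 23 higher and 0 lower, and 23 of 23 were positive with a median of 0.69. Cryo-thermal replicate 1 was the highest tumour for 23 of 23. Oas1a, an antiviral enzyme that senses double-stranded RNA, had 24.4, 13.4 and 9.18 FPKM after cryo-thermal therapy and 6.68, 7.0 and 4.92 FPKM after radiofrequency ablation (log2 fold change 1.12, SE 0.37, limma adjusted p = 0.262). Irf7, the transcription factor that amplifies type I interferon, had 48.1, 22.6 and 18.1 FPKM in the cryo-thermal tumours and 13.0, 11.7 and 11.4 FPKM in the radiofrequency tumours. Without cryo-thermal replicate 1 the list median was 0.40. With anti-PD-1 in both groups, 4 of the 23 were without overlap on the higher side and 1 on the lower side, and the median was 0.19. The shares over all genes there were 11.8% higher and 11.1% lower. The interferon gamma list had 21 of its 21 genes on fragment counts without overlap on the higher side there, and a median of 1.12. In no gene of either list did the difference between the 2 comparisons pass the adjusted threshold (3 type I and 0 interferon gamma genes at unadjusted p under 0.05, against 3.96% of all genes on the higher and 3.27% on the lower side).

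**Figure D4:**
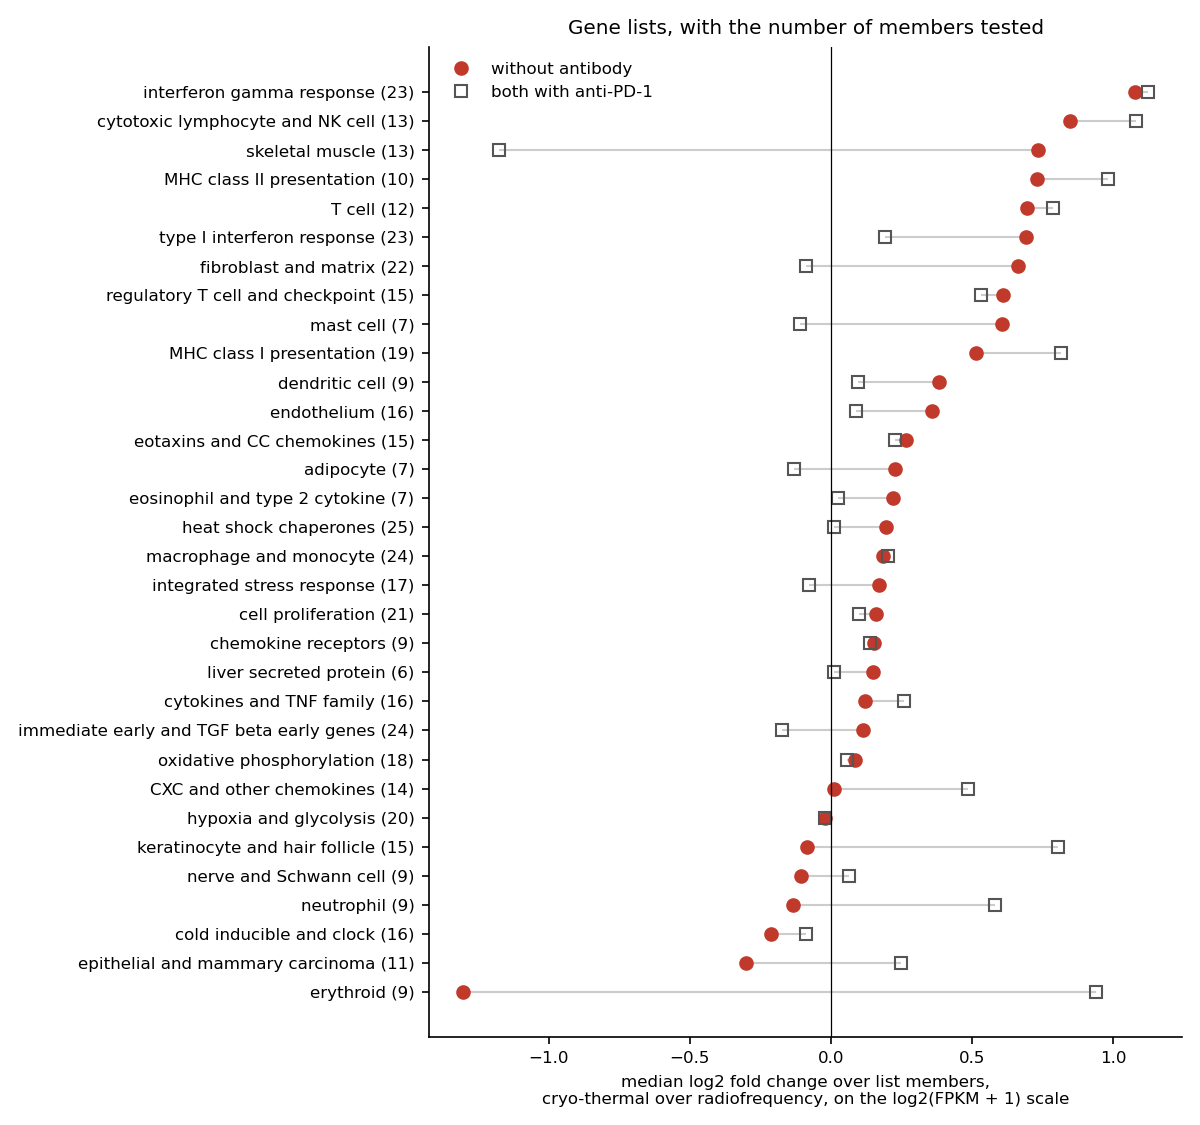
Median log2 fold change of cryo-thermal over radiofrequency tumours (x axis) for each gene list with at least 5 tested members (number in brackets), without antibody (red circles) and with anti-PD-1 in both groups (open squares). Interferon gamma genes lie at 1.08 and 1.12, type I interferon genes at 0.69 and 0.19, skeletal muscle genes at 0.73 and -1.18, and erythroid genes at -1.30 and 0.94.

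Heat shock chaperones, which fold proteins and are induced by heat shock factor 1, lay slightly higher in the cryo-thermal tumours: 11 of 25 did not overlap on the higher side and 0 on the lower side, with a median of 0.20. The 11 were the Hsp90 genes Hsp90aa1 and Hsp90ab1, the Hsp70 family genes Hspa4, Hspa8 and Hsph1, the Hsp90 co-chaperones Stip1, Ahsa1 and Fkbp4, the mitochondrial chaperonin Hspd1, the collagen chaperone Serpinh1, and Hsf1 itself. The promoters of 3 of them are shown because Fkbp4 and Stip1 led the list by p and Hsph1 is a classical target of heat shock factor 1. Each is the 250 bases before the gene's start in RefSeq's GRCm38.p6, on the gene's strand, 5′ to 3′, and capitals mark a match to the heat shock element as GAANNTTC or TTCNNGAA (each reads the same on both strands). The windows are chr6:128438657-128438906 (minus strand) for Fkbp4, chr5:149636337-149636586 (minus strand) for Hsph1 and chr19:7040027-7040276 (minus strand) for Stip1.
Fkbp4: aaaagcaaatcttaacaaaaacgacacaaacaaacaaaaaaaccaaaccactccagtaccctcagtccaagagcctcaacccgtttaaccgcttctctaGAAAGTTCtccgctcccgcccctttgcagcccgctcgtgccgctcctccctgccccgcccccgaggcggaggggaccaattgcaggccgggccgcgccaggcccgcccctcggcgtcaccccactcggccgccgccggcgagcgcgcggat
Hsph1: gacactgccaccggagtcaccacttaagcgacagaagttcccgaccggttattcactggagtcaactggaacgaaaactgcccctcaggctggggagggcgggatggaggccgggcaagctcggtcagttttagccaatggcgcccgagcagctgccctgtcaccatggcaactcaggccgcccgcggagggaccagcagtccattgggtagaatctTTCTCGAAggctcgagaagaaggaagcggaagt
Stip1: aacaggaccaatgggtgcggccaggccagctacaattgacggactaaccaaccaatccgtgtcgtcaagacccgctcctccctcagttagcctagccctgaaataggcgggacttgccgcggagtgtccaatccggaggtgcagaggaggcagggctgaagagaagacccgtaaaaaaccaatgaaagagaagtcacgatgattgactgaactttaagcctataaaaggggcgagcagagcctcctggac
The Fkbp4 window holds 1 match, which begins 151 bases before the start, the Hsph1 window holds 1, which begins 33 bases before it, and the Stip1 window holds 0. Of 21 list members with a window in the table, 9 (42.9%) held a match, against 14.5% of all 27025 genes with a window. The share was 42.9% both for the 7 with a window whose values did not overlap and for the other 14.

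Stip1, which links Hsp70 to Hsp90, had 158, 181 and 168 FPKM in the cryo-thermal tumours, against 131, 130 and 131 FPKM in the radiofrequency tumours (log2 fold change 0.36, SE 0.07, limma adjusted p = 0.224). Fkbp4 had 140, 162 and 137 FPKM after cryo-thermal therapy and 113, 112 and 105 FPKM after radiofrequency ablation (log2 fold change 0.41, SE 0.09, limma adjusted p = 0.224). These differences were small but larger than the spread within either group. The most heat-inducible genes overlapped between groups: Hspa1a had 9.27, 4.29 and 3.27 FPKM after cryo-thermal therapy and 3.43, 2.04 and 2.01 FPKM after radiofrequency ablation. Its log2 fold change of 0.84 was the largest of the list, and it overlapped only in 3.27 against 3.43 FPKM. Hspa1b had 52.7, 31.0 and 40.5 FPKM in the cryo-thermal tumours and 63.7, 28.3 and 32.9 FPKM in the radiofrequency tumours, and Dnajb1 and Bag3 had log2 fold changes of -0.10 and -0.11. Hspa1a and Hspa1b are near-identical, so their split is uncertain. With anti-PD-1 in both groups, 2 of the 25 genes were without overlap on the higher side and 2 on the lower side, with a median of 0.01.

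Cold-inducible and circadian clock genes lay on the lower side. All 16 tested had a negative log2 fold change, 8 did not overlap on the lower side, 0 on the higher side, and the median was -0.21. Tef, a clock output transcription factor, had 8.55, 6.78 and 8.69 FPKM in the cryo-thermal tumours, against 10.6, 11.0 and 10.7 FPKM in the radiofrequency tumours (log2 fold change -0.39, SE 0.10, limma adjusted p = 0.262). Cirbp, the cold-inducible RNA-binding protein, had 21.8, 22.7 and 24.3 FPKM after cryo-thermal therapy and 28.5, 25.6 and 29.7 FPKM after radiofrequency ablation. Per2, a core repressor of the clock, had 1.17, 0.74 and 1.57 FPKM in the cryo-thermal tumours and 1.63, 1.72 and 2.21 FPKM in the radiofrequency tumours. Bmal1, which peaks in antiphase to Per2 in many mouse tissues, overlapped, with a log2 fold change of -0.05 (SE 0.09). The time of day of collection is not given in the sources used here, and its part was not tested. With anti-PD-1 in both groups, 3 of the 16 were without overlap on the lower side and 1 on the higher side, with a median of -0.09.

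**Figure D5:**
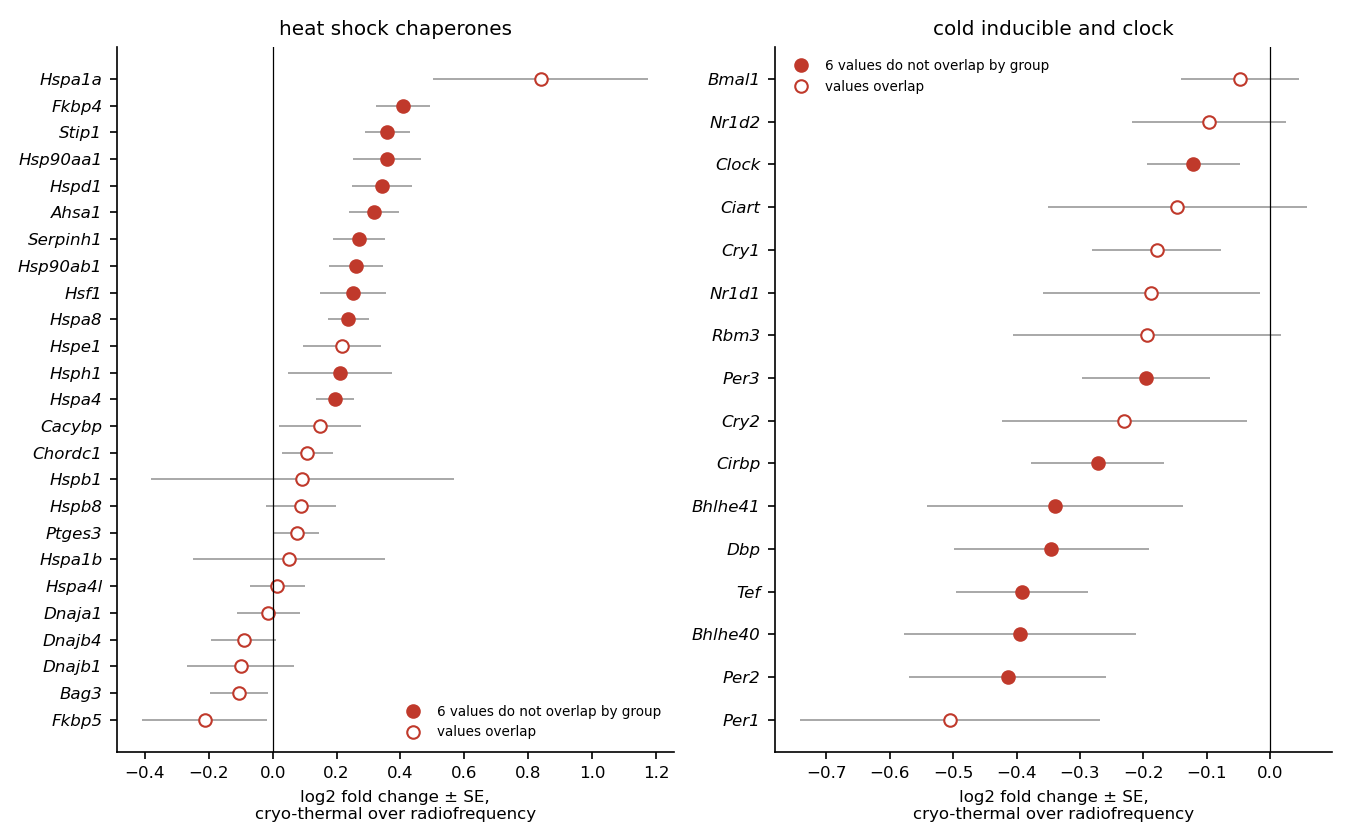
Log2 fold change with its standard error (x axis, cryo-thermal over radiofrequency) for each tested heat shock chaperone gene (left) and cold-inducible or clock gene (right); filled points mark genes whose 3 and 3 values do not overlap. The 11 filled chaperones lie between 0.20 and 0.41, and all 16 clock and cold-inducible genes lie below 0.

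Myeloid genes differed by kind. General macrophage genes overlapped: of 24 macrophage and monocyte genes, 2 were without overlap on the higher side (Cd14 and Ly6c2) and 1 on the lower side (Chil3), with a median of 0.18 (0.06 without cryo-thermal replicate 1, 0.30 without cryo-thermal replicate 3, -0.08 without radiofrequency replicate 1, 0.43 without radiofrequency replicate 3). Itgam had 35.9, 25.4 and 20.9 FPKM in the cryo-thermal tumours and 19.4, 20.2 and 27.4 FPKM in the radiofrequency tumours. Ly6c2, a marker of inflammatory monocytes, had 13.5, 8.45 and 4.0 FPKM after cryo-thermal therapy and 1.74, 3.35 and 2.32 FPKM after radiofrequency ablation. S100a9, a calcium-binding protein abundant in neutrophils and monocytic suppressor cells, went the other way with the largest negative value of the leading genes: it had 20.2, 2.13 and 8.61 FPKM in the cryo-thermal tumours, against 60.4, 91.2 and 174 FPKM in the radiofrequency tumours (log2 fold change -3.53, SE 0.89, limma adjusted p = 0.262). Its partner S100a8 had 12.6, 1.59 and 6.76 FPKM after cryo-thermal therapy and 33.5, 46.0 and 134 FPKM after radiofrequency ablation. Chil3, made by alternatively activated myeloid cells, had 3.43, 4.05 and 13.4 FPKM after cryo-thermal therapy and 15.6, 65.3 and 14.6 FPKM after radiofrequency ablation.

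Of the 9 tested neutrophil genes, 3 had a positive log2 fold change, 3 were without overlap on the lower side (S100a8, S100a9 and Retnlg) and 1 on the higher side (Trem1). The median was -0.14 and lay from -0.50 without cryo-thermal replicate 1 to 0.07 without cryo-thermal replicate 2. The granulocyte colony-stimulating factor receptor Csf3r had a log2 fold change of 0.08 (SE 0.31) and Mmp8 one of -0.01. With anti-PD-1, S100a9 had 230, 71.9 and 13.7 FPKM after cryo-thermal therapy, against 8.93, 26.9 and 7.62 FPKM after radiofrequency ablation, a log2 fold change of 2.23. The difference between the comparisons had an unadjusted p of 0.000345 for S100a9, 0.000622 for S100a8 and 0.000959 for Chil3, and none of the 3 passed over all genes. In dendritic cell genes 1 of 9 was without overlap on the higher side, Irf8, and 1 on the lower side, Zbtb46, with a median of 0.38 (0.23 without cryo-thermal replicate 1, 0.66 without cryo-thermal replicate 3). Ccr7, the receptor of migrating dendritic cells and naive T cells, had 3.27, 2.22 and 0.677 FPKM after cryo-thermal therapy and 0.709, 0.509 and 0.53 FPKM after radiofrequency ablation.

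Stromal genes split within their list. Of 22 fibroblast and matrix genes, 14 had a positive and 8 a negative log2 fold change, with 1 gene (Dpep1) without overlap and a median of 0.66 (0.30 without cryo-thermal replicate 1, 0.50 and 0.40 without radiofrequency replicates 1 and 2, 0.99 without radiofrequency replicate 3). Mfap5, a microfibril protein, had 23.1, 16.9 and 10.9 FPKM in the cryo-thermal tumours and 5.26, 3.48 and 14.8 FPKM in the radiofrequency tumours (log2 fold change 1.18, SE 0.35). Dcn, the proteoglycan decorin, had 175, 226 and 516 FPKM after cryo-thermal therapy and 490, 500 and 699 FPKM after radiofrequency ablation (log2 fold change -1.02, SE 0.34). Col1a1 had 278, 143 and 145 FPKM after cryo-thermal therapy and 93.6, 89.2 and 196 FPKM after radiofrequency ablation. For Dcn cryo-thermal replicate 3 lay with the radiofrequency tumours, and for Mfap5 and Col1a1 radiofrequency replicate 3 lay with the cryo-thermal tumours. Without cryo-thermal replicate 3 the log2 fold change was -1.48 for Dcn (limma adjusted p = 0.0268), 1.445 for Mfap5 (0.0573) and 0.75 for Col1a1 (0.28). Without radiofrequency replicate 3 it was -0.85 for Dcn (limma adjusted p = 0.49), 1.70 for Mfap5 (0.039) and 0.96 for Col1a1 (0.428). Dcn and Mfap5 each passed in the fit without the tumour that went against the difference, so that pass is no added support. Endothelial genes were also high in radiofrequency replicate 3: Pecam1 had 14.9, 11.0 and 10.6 FPKM after cryo-thermal therapy and 6.78, 6.33 and 15.4 FPKM after radiofrequency ablation. Of 16 endothelial genes, 16 were positive with 0 without overlap, and the median was 0.36 (0.71 without radiofrequency replicate 3, 0.22, 0.22 and 0.20 without cryo-thermal replicate 1 and radiofrequency replicates 1 and 2). The mean log2 level of the fibroblast list was 5.11, 4.79 and 4.76 in the cryo-thermal tumours and 4.27, 4.21 and 5.10 in the radiofrequency tumours. In radiofrequency replicate 3, where this level matched that of cryo-thermal replicate 1, Ccl11 was at 1.15 FPKM and Cxcl14 at 5.01 FPKM. That is 1 tumour, and the part of stromal content in the Ccl11 and Cxcl14 values was not tested.

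Complement genes were looked at after their values were seen, as Cfb and Serping1 were among the larger differences. Of 10 genes, 4 were without overlap on the higher side (C1ra, C2, Cfb and Serping1) and 0 on the lower side. Serping1, the inhibitor of the classical pathway, had 67.8, 36.7 and 24.5 FPKM in the cryo-thermal tumours and 10.1, 8.46 and 19.6 FPKM in the radiofrequency tumours (log2 fold change 1.65, limma adjusted p = 0.224). Cfb, a protease of the alternative pathway, had 29.5, 17.7 and 10.9 FPKM after cryo-thermal therapy and 4.57, 9.04 and 5.58 FPKM after radiofrequency ablation.

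Markers of neighbouring tissues varied from tumour to tumour within both groups. Haemoglobin was high in part of each group: Hbb-bs had 12.3, 11.3 and 99.3 FPKM in the cryo-thermal tumours and 228, 21.6 and 484 FPKM in the radiofrequency tumours. The erythroid list had 9 of 9 negative, 1 without overlap and a median of -1.30 (-0.69 without cryo-thermal replicate 2, -2.19 without radiofrequency replicate 2, -0.60 without radiofrequency replicate 3), and its mean log2 levels were 2.28, 2.14 and 3.66 in the cryo-thermal tumours. In the radiofrequency tumours these levels were 4.199, 2.54 and 4.94. Skeletal muscle genes were highest in cryo-thermal replicate 2: Acta1 had 5.62, 25.3 and 4.51 FPKM after cryo-thermal therapy and 0.429, 9.36 and 1.23 FPKM after radiofrequency ablation. All 13 muscle genes were positive without antibody and 0 of 13 with it, and the median without antibody was 0.73 (0.25 without cryo-thermal replicate 2). Of all 12587 genes, 6266 were positive without antibody and 6090 with it. For the difference between the comparisons, 11 of the 13 had an unadjusted p under 0.05, none past the adjusted threshold. The shares over all genes were 3.96% on the higher and 3.27% on the lower side. All 13 were highest in cryo-thermal replicate 2, so they are not separate results. Keratinocyte genes were high in cryo-thermal replicate 2 and radiofrequency replicate 3, with Krtdap at 0.63, 19.2 and 1.42 FPKM after cryo-thermal therapy and 7.86, 2.29 and 34.1 FPKM after radiofrequency ablation. The part of blood, muscle and skin in the immune gene values was not tested.

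The mean log2 level of the immediate early list was highest in cryo-thermal replicate 3, which was the highest of the 6 tumours for 11 of the 24 genes. Fosb, a transcription factor induced within minutes of stress, had 13.4, 7.49 and 48.5 FPKM in the cryo-thermal tumours and 8.7, 1.98 and 3.78 FPKM in the radiofrequency tumours (log2 fold change 1.82, SE 0.62). Egr1 had 62.2, 38.7 and 167 FPKM after cryo-thermal therapy and 80.2, 34.6 and 51.9 FPKM after radiofrequency ablation. Klf10, an early target of TGF beta, and Egr3 were the 2 of 24 genes without overlap, both on the lower side. The list median was 0.11, and lay from -0.05 without cryo-thermal replicate 3 to 0.245 without cryo-thermal replicate 2.

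Proliferation genes were positive in 21 of 21, with a median of 0.16 and 5 without overlap on the higher side. They were Mcm2, Mcm3, Mcm5 and Mcm6, of the replicative helicase, and Aurka, a mitotic kinase. Mcm3 had 79.2, 87.7 and 72.6 FPKM in the cryo-thermal tumours and 70.7, 70.7 and 51.2 FPKM in the radiofrequency tumours. The list median was 0.06 without radiofrequency replicate 3, 0.28 without radiofrequency replicate 2 and 0.25 without cryo-thermal replicate 3. Of 20 hypoxia and glycolysis genes 2 were without overlap on the lower side, Ankrd37 and Pdk1, and the median was -0.02. The hypoxia median lay from -0.15 without radiofrequency replicate 2 to -0.008 without cryo-thermal replicate 3. The integrated stress response list had 0 of 17 genes without overlap and a median of 0.17, and oxidative phosphorylation 4 of 18 on the higher side and a median of 0.08 (0.05 without cryo-thermal replicate 2, 0.14 without cryo-thermal replicate 3, 0.13 without radiofrequency replicate 2). In the epithelial list, 2 of 11 genes were without overlap on the lower side, with a median of -0.30 (-0.20 without cryo-thermal replicate 3, -0.02 without radiofrequency replicate 3), and the adhesion molecule Cdh1 had 1.75, 2.22 and 2.29 FPKM after cryo-thermal therapy and 2.49, 3.2 and 2.73 FPKM after radiofrequency ablation.

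The comparison of the same ablations with anti-PD-1 uses other tumours. There, 103 genes were higher (0.818%) and 62 lower (0.493%) past the limma threshold after cryo-thermal therapy (9.2% and 7.98% at unadjusted p under 0.05), and in no gene did the difference between the 2 comparisons pass (499 genes with the larger value without antibody and 411 with the smaller at unadjusted p under 0.05). Of the genes without overlap on the higher side, 316 were shared, 31.1% of those without antibody and 21.4% of those with it. On the lower side 198 were shared, 20.7% and 14.2%. Over all genes, 8.08% were without overlap on the higher and 7.59% on the lower side without antibody, against 11.8% and 11.1% with it. Ifng and Cd8a, which did not pass without antibody (log2 fold changes 0.82 and 1.10, limma adjusted p = 0.262 for both), had log2 fold changes of 1.34 and 1.66 with it (limma adjusted p = 0.0362 and 0.0386). The unadjusted p of that difference was 0.176 for Ifng and 0.257 for Cd8a, so the larger values with antibody were not shown to differ from those without it.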

How the data were processed

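The table holds FPKM made by the authors, 1 column per tumour, with 0 columns of other samples; the submitters' processing notes list HTSeq 0.11.2, while the aligner, genome build and annotation are not given in the sources used here. Columns were matched to samples by title. Fragment counts and depth were recovered from the FPKM steps and gene lengths (9211 lengths came out whole within 0.02 bases). They served to check the rows and as a limma voom alternative.

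Values were tested as log2(FPKM + 1), after a filter at a mean of 0.5 FPKM, with a mean per group in all 18 tumours (limma 3.58.1, trend, R 4.3.3; checked on simulated data). Benjamini-Hochberg adjustment was over 12587 genes, with a threshold of 0.05. SE is limma's. Values "without overlap" have every tumour of 1 group above every tumour of the other.

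The comparison and 34 gene lists (631 entries, 477 tested) were chosen with earlier results of these data known; lists are described by counts and medians, without a test. Genes named are those past the threshold, the 12 of smallest p in each direction (predicted genes, clones and receptor segments left out), the 3 of smallest p per list and 23 genes of interest; others were chosen after their values were seen. Figures used matplotlib 3.10.9.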

Additional observations from a re-analysis of the deposited data

How the results depend on the processing

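For cryo-thermal against radiofrequency without antibody (1 gene higher, 0 lower), the counts were 0 and 1 without a filter, 0 and 0 both when these 6 tumours were fitted alone and by voom on recovered fragments, 806 and 567 with array weights, and 0 to 155 and 0 to 123 leaving out 1 tumour. With anti-PD-1 in both groups (103 and 62) they were 53 and 35 with a pseudocount of 0.1, 52 and 22 without a filter, 61 and 10 in a fit of only the groups compared, 1204 and 950 with array weights, 106 and 38 by voom, and 0 to 79 and 0 to 42 leaving out 1 tumour. For the difference between the comparisons (0 and 0) they were 1 and 1 without a filter, 1 and 0 in a fit of the 4 groups, 198 and 177 with array weights, and 0 to 2 in each direction leaving out 1 tumour. Array weights ran from 0.411 to 39.7, so those counts rest largely on a few tumours. Replicate numbers did not pair the samples (same-numbered tumours had correlations of deviations of -0.077, -0.047 and 0.044); with a replicate block the counts were 0 and 0 without antibody and 46 and 23 with it. Voom and leaving out the 5 chemokine rows were chosen after seeing the data. Median-of-ratios scaling and a filter at 1 FPKM kept every count within 1.5 times. The cause of these differences was not tested. Over all alternatives, the medians ran from 0.44 to 1.67 for T cell, 0.54 to 1.47 for cytotoxic, 0.23 to 0.75 for dendritic cell, 0.25 to 1.54 for muscle, 0.64 to 1.41 for interferon gamma, 0.40 to 0.93 for type I interferon, 0.16 to 0.26 for heat shock and -0.28 to -0.20 for clock genes. Those of the CXC, macrophage, neutrophil, immediate early, keratinocyte, adipocyte, melanocyte and B cell lists changed sign in at least 1 alternative. At this depth counting error is small for all but the lowest genes, Ifng and Cxcr3 among these, and 3 tumours a group limit the precision.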
